A study of Mus musculus with 2 samples.

Results

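The genes described here encode proteins of the mitochondrial ribosome, and they were taken as the gene models in both expression tables whose symbol is Mrpl or Mrps followed by a number and at most 1 letter, with pseudogene symbols left out. This rule found 77 members among 34745 gene models, and all 77 were annotated as protein coding. RNA was measured in mouse haematopoietic stem and progenitor cells that carried either of 2 forms of PML/RARa, a fusion protein that joins PML, a scaffold of nuclear bodies, to the retinoic acid receptor alpha and causes acute promyelocytic leukaemia. Both groups came from femoral marrow of C57BL/6 mice treated with 5-fluorouracil, an agent that kills dividing cells, and both were enriched for progenitors with a selection kit. The first group received lentivirus with the wild-type fusion, PML/RARa (WT), and the second received PML/RARa (2KR). The labels do not spell out 2KR, and the title of the series says that 2 lysines of the fusion were studied. Cells were spun with the virus, kept for 24 h, grown with the cytokines SCF, IL-3 and IL-6 and sorted for transduced cells before RNA extraction. The labels give 1 library per form. The promoter that drives the fusion, the ages and number of the mice and the time of harvest are not stated in the labels, and an empty-vector arm named in the protocol was not analysed here.

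The mitochondrial ribosome, or mitoribosome, sits in the mitochondrial matrix and makes the membrane subunits of the respiratory chain that the mitochondrial chromosome encodes. Its rRNAs come from the mitochondrial chromosome, whereas all of its proteins are nuclear-encoded, translated in the cytosol and imported. A large subunit forms peptide bonds and a small subunit reads the mRNA, and each combines proteins with bacterial counterparts and proteins particular to mitochondria. Mitochondrial translation is known to be needed for the growth of acute myeloid leukaemia cells. The question was how the transcripts of this machine compared between cells with the wild-type fusion and cells with 2KR.

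The libraries held 17606168 counts (WT) and 20462011 counts (2KR). Counts were scaled to CPM, read counts relative to the library total with the TMM correction for library composition, and the comparison kept the 12466 gene models that reached 1 CPM as a mean over both libraries. With 1 library per form there is no replicate error, so no test was run. The 95% intervals given are exact (Clopper-Pearson) and cover counting error only, so an interval that leaves out 1 shows a difference between these 2 libraries and not between the forms. In bulk RNA, a change in the mix of cells and a change in RNA per cell cannot be told apart. The progenitor markers Kit (1359 CPM in WT, 1158 CPM in 2KR) and Cd34 (388 and 723 CPM) were abundant in both libraries. The 8 mast cell markers, which also include Kit, summed to 7583 CPM in WT and 4056 CPM in 2KR. Nearly all of this sum was Cpa3 (5468 and 2525 CPM), Kit and Hdc (749 and 371 CPM). Ms4a2 (3.77 and 0.874 CPM) and Cma1 (3.55 and 0.0971 CPM) were low, Fcer1a was at 0 in both, and Mcpt4 and Tpsb2 were at 0 in 2KR. The 5 markers of this list that could be compared were all lower in 2KR. The 6 proliferation markers summed to 2746 and 3197 CPM, and all 6 were higher in 2KR. Summed levels were 18.4 and 38.7 CPM for 6 granulocyte markers, 11.8 and 22.0 CPM for 4 erythroid markers, 34.5 and 30.8 CPM for 4 macrophage markers and 0 and 0.485 CPM for 4 lymphoid markers. The 5 stromal and endothelial markers summed to 556 and 680 CPM, nearly all of it Pecam1, which blood progenitors also express. The part of these differences in the results below was not tested.

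The mitoribosomal transcripts were slightly more abundant in the 2KR library and none of them differed strongly. The members took 0.207% of WT counts and 0.225% of 2KR counts. All 77 passed the filter, with levels from 3.15 to 138.8 CPM and medians of 24.1 CPM in WT and 27.0 CPM in 2KR. The ratio of 2KR to WT was above 1 in 56 members and below 1 in 21, that is 72.7% above, beside 52.3% of all compared models and 51.9% of the 9209 models within the members' range of levels. The median log2 ratio, taken on CPM + 1, was 0.10 for the members (quartiles -0.01 and 0.22) and 0.02 for all compared models (quartiles -0.21 and 0.23).

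The members lay within a narrow band. Their log2 ratios ran from -0.49 to 0.83 with an SD of 0.23, beside an SD of 0.58 over all compared models, and the counting error of a member's log2 ratio was 0.107 as a root mean square. No member was 2-fold higher or lower in 2KR, while 2.66% of all compared models were at least 2-fold higher and 4.56% at least 2-fold lower. At 1.5-fold on the same scale, 2 members were higher (background 6.92%) and 0 were lower (background 9.67%). By a looser rule, 10 members were at least 25% higher in 2KR and 2 were at least 20% lower, beside 16.9% and 18.1% of all compared models, or 16.4% and 17.4% of those in the members' range. The members' share was a little under the background on the higher side and well under it on the lower side. The counting interval lay wholly above 1 in 30 members and wholly below 1 in 7, beside 31.6% and 28.5% of all compared models, and it held 1 in the other 40.

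**Figure D1:**
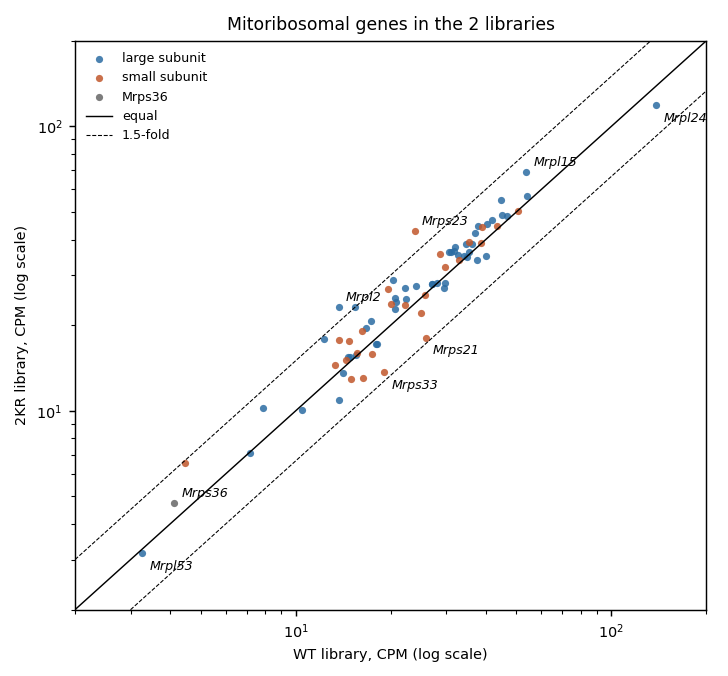
Level of each of the 77 mitoribosomal genes in the WT library (horizontal axis, CPM, log scale) and the 2KR library (vertical axis, CPM, log scale), coloured by subunit; the solid line marks equal levels and the dashed lines a 1.5-fold ratio. Most points lie just above the line of equality, Mrps23 and Mrpl2 lie beyond the upper dashed line, and Mrpl24 stands alone at 138.8 and 118.5 CPM.

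The 2 members past 1.5-fold belonged to different subunits. Mrps23 (ENSMUSG00000023723, plus strand, 11:88204388-88211507), a small-subunit protein with no bacterial counterpart, had 416 counts in WT and 885 in 2KR. This is 23.8 CPM and 43.0 CPM, 1.81-fold higher in 2KR (95% interval 1.60 to 2.03), the highest ratio of all members, and no other gene model overlaps it. Mrpl2 (ENSMUSG00000002767, plus strand, 17:46646229-46650139) encodes the counterpart of bacterial L2, which lies close to the peptidyl transferase centre. Its 239 counts in WT and 479 in 2KR correspond to 13.7 and 23.2 CPM, 1.70-fold higher in 2KR (1.45 to 1.99). A second gene model, Gm26904, covers the same span and had 0 counts in both libraries, and how reads of the shared span were assigned is not stated in the labels.

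The next highest members mixed both subunits and both origins. Mrpl34, the counterpart of bacterial L34, had 15.4 CPM in WT and 23.1 CPM in 2KR, 1.496-fold higher (1.29 to 1.74). Mrpl16, which contacts the tRNAs near the peptidyl transferase centre, had 12.3 and 17.9 CPM, 1.46-fold higher (1.23 to 1.73). Mrps30, named for the small subunit but placed in the large one in structures of the mammalian mitoribosome, had 20.4 and 28.8 CPM, 1.41-fold higher (1.24 to 1.62). Mrps28, the counterpart of bacterial S1, rested on only 78 and 135 counts, at 4.46 and 6.55 CPM, and its 1.47-fold higher level had a wide interval (1.10 to 1.97). All 6 of the highest ratios had intervals above 1, but these genes were picked by the same ratios, so the intervals add no separate support.

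At the other end, small-subunit genes held the lowest ratios. Mrps21 (ENSMUSG00000054312, minus strand, 3:95862634-95871519), the counterpart of bacterial S21, had 452 counts in WT and 372 in 2KR. Its level was 25.9 CPM in WT and 18.1 CPM in 2KR, 1.43-fold lower in 2KR (1.246 to 1.65). Mrps33 (ENSMUSG00000029918, minus strand, 6:39801804-39810988), a mitochondria-specific protein of the small subunit, had 334 and 281 counts, or 19.1 and 13.6 CPM, 1.401-fold lower (1.19 to 1.65). No gene model overlaps either of them, and they were the only members at least 20% lower on the CPM + 1 scale.

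Smaller differences in the same direction followed. Mrpl48, a protein of the central protuberance, had 13.7 CPM in WT and 10.9 CPM in 2KR, 1.26-fold lower (1.04 to 1.51). Its exons overlap those of Rab6a, on the other strand, at 79.2 and 88.5 CPM. Mrps16, the counterpart of bacterial S16, had 16.3 and 13.1 CPM, 1.249-fold lower (1.05 to 1.48). Mrps34, which is needed for stability of the small subunit, had 14.9 and 12.9 CPM, 1.16-fold lower with an interval that held 1 (0.971 to 1.38). Its exons overlap those of Mapk8ip3, on the other strand, at 178 and 162 CPM, so its reads cannot be told apart from that gene's where counting does not use strand. They also overlap exons of Nme3 on the same strand, at 2.40 and 1.41 CPM, which counting by strand would not separate. Mrpl24, near the exit of the peptide tunnel, was the most counted member at 138.8 CPM in WT and 118.5 CPM in 2KR, 1.17-fold lower (1.11 to 1.24). Its exons overlap those of Rrnad1, on the other strand, at 28.0 and 27.9 CPM. Without Mrpl24, the summed CPM of the members was 1.09-fold higher in 2KR, beside 1.07-fold with it.

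**Figure D2:**
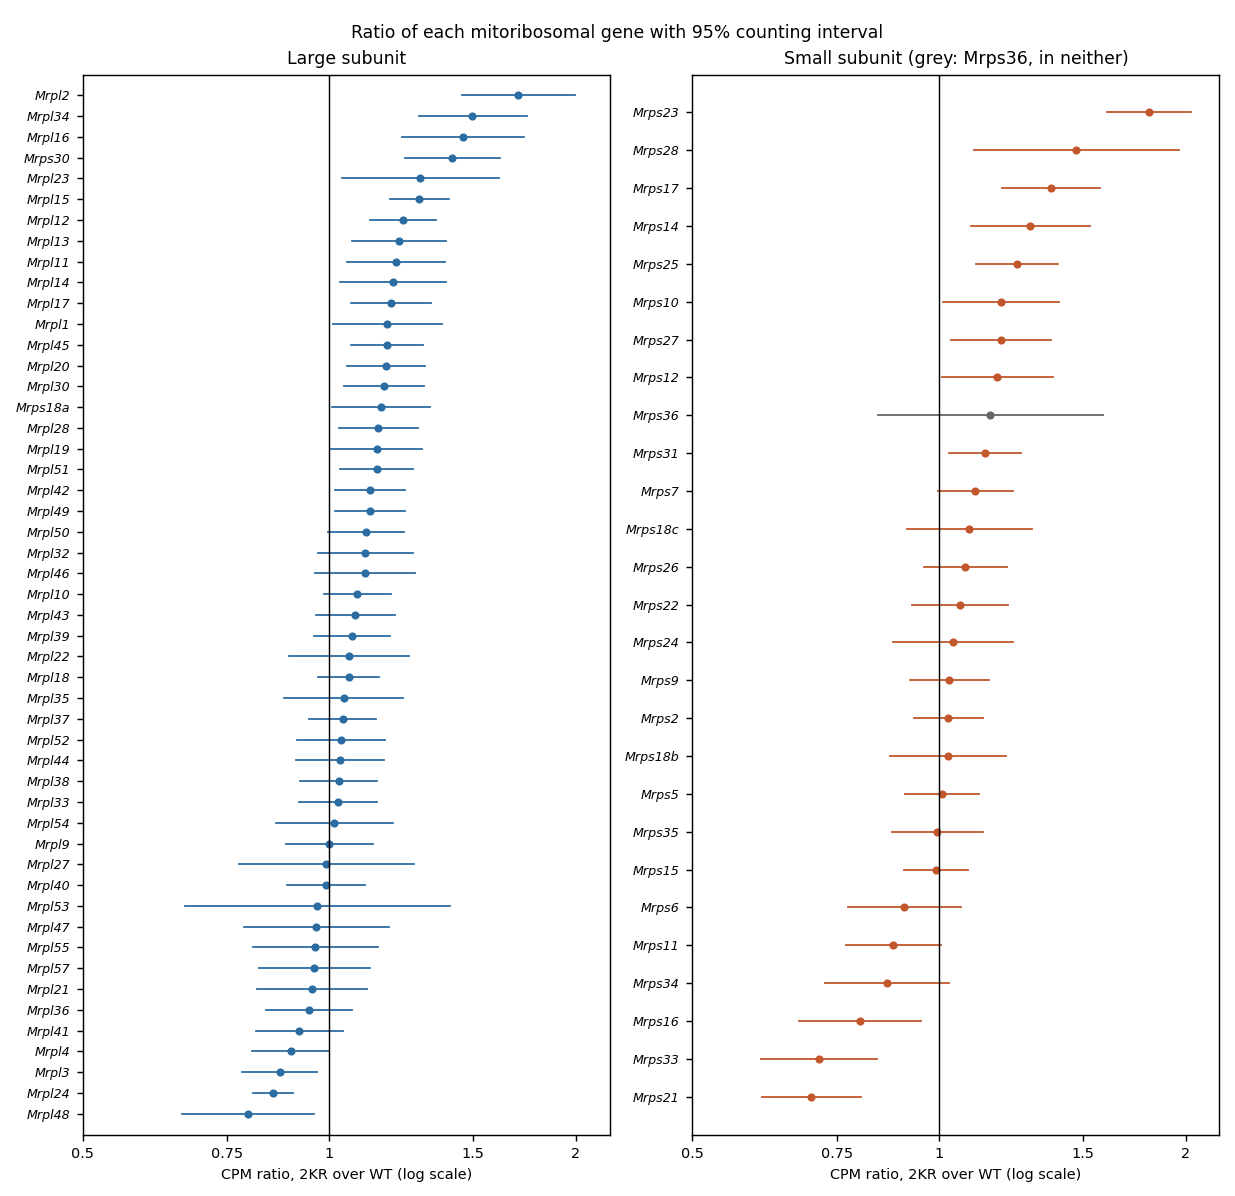
Ratio of CPM, 2KR over WT, for each gene of the large subunit (left) and the small subunit (right), on a log axis; points are the ratios, bars the exact 95% counting intervals, and the vertical line marks equality. Mrps23 at 1.81 stands apart from the next small-subunit gene, Mrps28 at 1.47, and Mrpl2 leads the large subunit at 1.70. Most ratios are close to 1, and Mrps21 and Mrps33 are lowest in the small subunit at 0.698 and 0.714.

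By subunit the 2 distributions were alike in their centre. In the large subunit 37 of 50 members had a ratio above 1, with a median log2 ratio of 0.11, and the summed level was 1457 CPM in WT and 1569 CPM in 2KR. In the small subunit 18 of 26 had a ratio above 1, with a median of 0.07, and the sum was 621 and 664 CPM. The small subunit spread more widely, with an SD of 0.28 on the log2 scale beside 0.20 in the large subunit, and it held both the highest and the lowest member. Mrps36, which belongs to neither subunit and is now known as a part of the alpha-ketoglutarate dehydrogenase complex, had 4.12 and 4.76 CPM, a ratio of 1.15 whose interval held 1 (0.843 to 1.59).

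Large-subunit proteins with bacterial counterparts had a somewhat higher median ratio than those particular to mitochondria, and the small subunit did not show this order. Among 30 large-subunit genes of the shared kind, 23 had a ratio above 1 and the median log2 ratio was 0.19, with 16 intervals wholly above 1 and 3 wholly below. Among the 20 large-subunit genes particular to mitochondria, 14 had a ratio above 1 and the median was 0.05, with 5 intervals above 1 and 1 below. The summed levels of both kinds had similar ratios. They were 890 CPM in WT and 963 CPM in 2KR for shared genes (1.08-fold). For genes particular to mitochondria they were 567 and 606 CPM (1.07-fold). Over all compared models, 52.3% of ratios were above 1, and 31.6% of intervals lay wholly above 1 and 28.5% wholly below. In the small subunit the medians were 0.04 for 17 shared genes and 0.10 for 9 mitochondria-specific ones. No test of these differences was possible with 1 library per form.

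The stalk of the large subunit recruits the translation factors. Its 3 genes were all higher in the 2KR library, beside 52.3% of all compared models with a ratio above 1. Mrpl12, whose protein forms the mobile part of the stalk, had 44.7 CPM in WT and 55.0 CPM in 2KR, 1.23-fold higher (1.12 to 1.35). Mrpl11, at the stalk base, had 20.6 and 24.9 CPM, 1.21-fold higher (1.05 to 1.38). Mrpl10, which anchors Mrpl12 to the ribosome, had 45.1 and 48.8 CPM, a ratio of 1.08 whose interval held 1 (0.985 to 1.19).

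Genes around the catalytic centre did not move together. Of the 5 (Mrpl2, Mrpl3, Mrpl4, Mrpl16 and Mrpl27), 2 had a ratio above 1, beside 52.3% of all compared models. The median log2 ratio of these 5 was -0.01. Mrpl2 and Mrpl16 were among the highest members, as given above, whereas Mrpl3 had 40.1 CPM in WT and 34.9 CPM in 2KR, 1.15-fold lower (1.03 to 1.28). The exons of Mrpl3 overlap those of Gm38077, on the same strand, at 8.52 and 7.72 CPM. Mrpl4 had 37.6 and 33.8 CPM, 1.11-fold lower. Mrpl27, whose bacterial counterpart reaches into the catalytic centre, was nearly equal at 7.15 and 7.09 CPM.

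Along the exit tunnel, where the new peptide leaves towards the inner membrane, 5 of 7 genes had a ratio above 1, with a median log2 ratio of 0.14. The share above 1 over all compared models was 52.3%. Mrpl45, which tethers the large subunit to the inner membrane, had 37.9 CPM in WT and 44.7 CPM in 2KR, 1.18-fold higher (1.06 to 1.30). Mrpl24 went the other way, and because of its high level the summed CPM of the 7 genes was slightly lower in 2KR (263 CPM in WT and 260 CPM in 2KR). In the central protuberance, 3 of 5 genes had a ratio above 1, with a median of 0.04, and Mrpl48 was the one whose interval left out 1.

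Proteins of the small subunit that line the mRNA path and the decoding site were close to equal. All 4 of these genes had a ratio above 1, beside 52.3% of all compared models, with a median log2 ratio of 0.05. Mrps12, part of the decoding centre, had 16.2 CPM in WT and 19.1 CPM in 2KR, 1.18-fold higher (1.01 to 1.38). Mrps2 had 43.5 and 44.7 CPM, a ratio of 1.03 (0.932 to 1.13), and Mrps7, a protein of the head of the small subunit outside this group, had 35.5 and 39.4 CPM, a ratio of 1.11 (0.997 to 1.23). Mrpl44 of the large subunit, whose protein is related to RNase III, was also near equality at 27.1 and 28.0 CPM, a ratio of 1.03 (0.912 to 1.17).

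The mammalian mitoribosome has 3 paralogs of bacterial S18, which occupy different sites, and all 3 of their genes had a ratio above 1. The share over all compared models was 52.3%, and 2 of the 3 intervals held 1. Mrps18a, whose protein lies in the large subunit, had 20.8 CPM in WT and 24.1 CPM in 2KR, 1.16-fold higher (1.01 to 1.33). Mrps18b had 15.6 and 16.02 CPM, a ratio of 1.03 (0.871 to 1.21). Mrps18c had 13.3 and 14.5 CPM, a ratio of 1.09 (0.914 to 1.30), and the intervals of all 3 overlapped. Per kilobase of merged exon the order of their levels was the reverse of that in CPM, with Mrps18c at 12.4 CPM per kilobase in WT and 13.5 in 2KR, Mrps18b at 7.47 and 7.67, and Mrps18a at 5.64 and 6.52.

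Levels between members were compared per length, since CPM rises with transcript length. In the deposited FPKM, which divides fragments by gene length and by the library total, members ran from 1.22 to 62.3 in WT (median 7.73) and from 1.22 to 70.9 in 2KR (median 8.70). Ranked by the mean of both libraries, the 6 highest were large-subunit genes, an order that differed within each library. Mrpl42 led with 62.3 in WT and 70.9 in 2KR, followed by Mrpl24 with 36.5 and 31.6, and Mrpl36, a small protein that is among the last to join the large subunit in bacteria, with 32.8 and 31.4. Mrpl32, which is known to be cut to its mature form by the m-AAA protease, had 28.9 and 32.5, Mrpl34 had 23.8 and 36.1, and Mrpl43 had 26.8 and 29.3. In WT alone, Mrpl4 at 29.1 and the small-subunit gene Mrps16 at 28.6 were above Mrpl43 and Mrpl34, and in 2KR alone Mrpl34 and Mrpl32 were above Mrpl24. The 3 lowest by the same mean were Mrps10 with 1.22 and 1.48, Mrpl48 with 1.51 and 1.22, and Mrps17 with 1.404 and 1.95.

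This order depended on the gene length used. The length that links the deposited FPKM to the count equalled, within 1%, the sum of all distinct annotated exons in GENCODE M21 for 55 of 77 members, and the merged exon length for 2 of 77. Over all models with at least 20 counts in WT, the corresponding shares were 69.0% and 10.9%. Exons that overlap between transcripts are thus counted more than once in most models, and other models carry a length shorter than their merged exons. For Mrpl42 the implied length was 0.666 kb, while its merged exons span 3.68 kb, and per kilobase of merged exon its level was 11.4 CPM in WT and 12.7 CPM in 2KR. Mrpl24 was then the highest member, at 61.6 and 52.5 CPM per kilobase. The ratio of implied to merged length ran from 0.154 (Mrpl32) to 2.73 (Mrpl55), with a median of 1.24, and Spearman's rho between both levels across the 77 genes was 0.77, as a description of genes that share the same libraries. The ratio of 2KR to WT does not depend on this length.

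**Figure D3:**
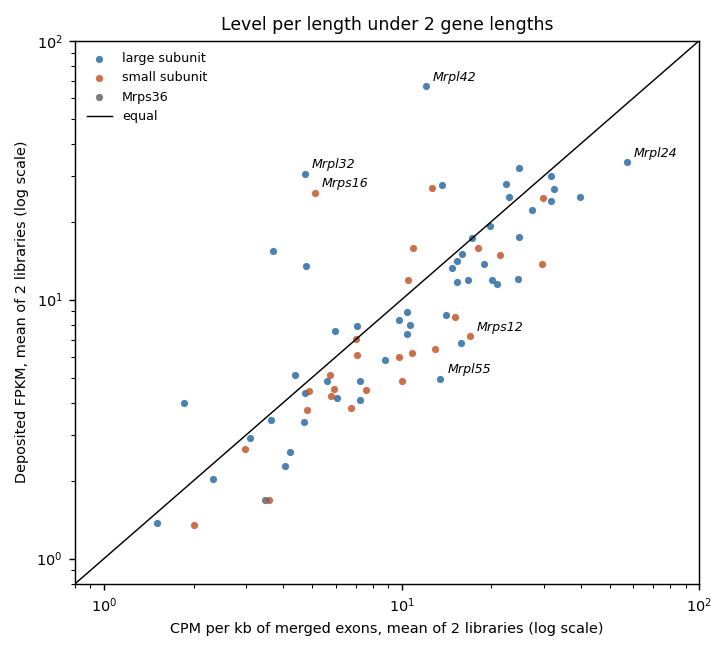
Deposited FPKM (vertical axis, mean of both libraries, log scale) against CPM per kilobase of merged exons (horizontal axis, mean of both libraries, log scale) for the 77 genes, with the line of equal values. Mrpl42, Mrpl32 and Mrps16 lie far above the line, Mrpl55 and Mrps12 lie below it, and Mrpl24 is farthest right.

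Of the 6 mitoribosomal proteins that carry other symbols, 5 had a ratio above 1 and 4 an interval wholly above 1. The shares over all compared models were 52.3% and 31.6%. The median log2 ratio of these 6 was 0.23, beside 0.10 in the members. Chchd1 had 13.0 CPM in WT and 19.3 CPM in 2KR, 1.48-fold higher (1.26 to 1.75). Gadd45gip1, the large-subunit protein also known as CRIF1, had 20.99 and 27.9 CPM, 1.33-fold higher (1.16 to 1.52). Ptcd3, of the small subunit, had 48.1 and 57.9 CPM, 1.20-fold higher (1.10 to 1.32).

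The cytosolic ribosome, compared as the other set of ribosomal proteins, stood at higher ratios than the mitoribosome. Of its 80 compared genes (84 models), 69 had a ratio above 1, and the median log2 ratio was 0.23. Nuclear genes of the respiratory chain, whose products assemble with those of mitochondrial translation, had a ratio above 1 in 48 of 76 compared genes (80 models), with a median of 0.06. The mRNAs that the mitoribosome itself translates went the other way. Of 13 on the mitochondrial chromosome, 12 had a lower level in 2KR, the median was -0.31, and their share of all counts was 7.45% in WT and 6.22% in 2KR. The lowest, mt-Cytb, had 6903 CPM in WT and 4654 CPM in 2KR, 1.48-fold lower (1.47 to 1.496), and mt-Nd6, the one mRNA from the light strand, had 15.9 and 17.6 CPM, with an interval of its ratio of 1.10 that held 1 (0.942 to 1.30). The mitochondrial rRNAs were not analysed here.

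**Figure D4:**
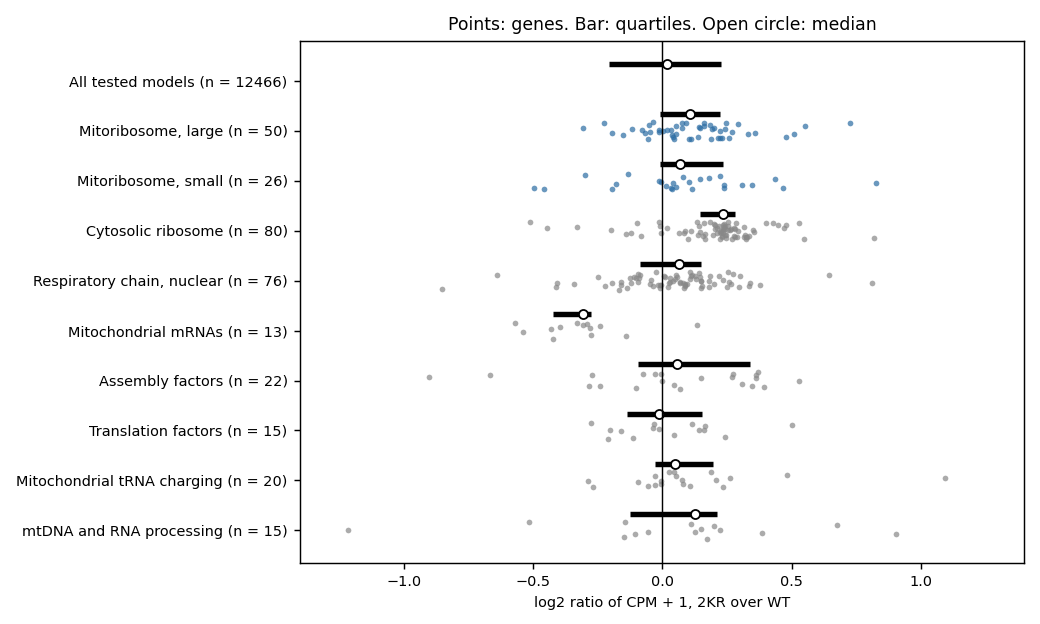
Log2 ratio of CPM + 1, 2KR over WT, for the genes of each set (points), with the median (open circle) and quartiles (bar), and the same for all 12466 compared models. Both mitoribosomal subunits centre slightly above 0 at 0.11 and 0.07, the cytosolic ribosome at 0.23, and mitochondrial mRNAs at -0.31.

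Genes that build the mitoribosome were mixed. Of 25 assembly factors, 22 were matched by symbol, 12 of these had a ratio above 1 and 10 below, and the median log2 ratio was 0.06. Trub2, a pseudouridine synthase, had 29.8 CPM in WT and 15.5 CPM in 2KR, 1.92-fold lower (1.67 to 2.22). Mrm1, which methylates the large rRNA, had 14.9 and 9.03 CPM, 1.65-fold lower (1.36 to 2.01). Malsu1, which keeps the unfinished large subunit from joining the small one, had 5.78 and 8.78 CPM, 1.52-fold higher (1.19 to 1.96). The spread of this list was wider than that of the ribosomal proteins, with an SD of 0.36 on the log2 scale.

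Genes that run translation on the mitoribosome were close to balance. Among 15 translation factors and mRNA-handling genes, 7 had a ratio above 1 and the median log2 ratio was -0.01, a sign that changed with the scaling (range -0.03 to 0.01) and with a filter of at least 5 CPM (0.02). Taco1, an activator of mt-Co1 translation, had 15.0 CPM in WT and 21.6 CPM in 2KR, 1.44-fold higher (1.24 to 1.69). The other side of 1 held 8 genes of this list, and its log2 ratios ran from -0.27 to 0.50. Among 20 genes that charge mitochondrial tRNAs, 12 had a ratio above 1 and the median was 0.05. Wars2, the tryptophan enzyme, had 3.20 and 7.96 CPM, 2.48-fold higher (1.82 to 3.43), on 56 and 164 counts, and was the 1 gene of this list past 2-fold. Tars2, the threonine enzyme, had 33.3 and 46.9 CPM, 1.41-fold higher (1.27 to 1.56). Lars2 went the other way, with 44.6 CPM in WT and 36.35 CPM in 2KR, 1.23-fold lower (1.11 to 1.36). It was the 1 gene of this list with an interval wholly below 1, and 4 genes had one wholly above. The shares over all compared models were 28.5% below and 31.6% above.

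The genes that copy and process the mitochondrial chromosome's RNA held larger differences in both directions. Of 16, 15 were matched, 9 had a ratio above 1 and the median log2 ratio was 0.12. Tfb2m, a factor that mitochondrial RNA polymerase needs to start transcription, had 20.5 CPM in WT and 8.25 CPM in 2KR, 2.48-fold lower (2.06 to 2.997). Mgme1, an exonuclease for mitochondrial DNA, had 20.9 and 39.9 CPM, 1.91-fold higher (1.69 to 2.17). Hsd17b10, a subunit of mitochondrial RNase P, had 28.8 and 46.6 CPM, 1.62-fold higher (1.45 to 1.80).

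Regulators known to drive nuclear genes of mitochondria were compared as a list of 10. The ratio was above 1 in 6 and below 1 in 4, and the median log2 ratio was 0.02, or -0.00091 with totals that leave out the mitochondrial chromosome. The coactivator Ppargc1a had 48.2 CPM in WT and 9.61 CPM in 2KR, 5.02-fold lower (4.29 to 5.89), on 843 and 198 counts. Esrra, its nuclear receptor partner, had 16.2 and 12.6 CPM, 1.29-fold lower (1.08 to 1.53). Of the other DNA-binding factors, Nrf1 (29.0 and 30.0 CPM) and Gabpa (99.2 and 99.6 CPM) were close to equal. Yy1 was somewhat higher in 2KR, at 113 and 124 CPM.

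The promoters of the members were read for the motifs of these factors, since the genes lie on 17 chromosomes and share no common neighbourhood: chromosome 11 held 10 members, and the X, Y and mitochondrial chromosomes held 0. RefSeq windows on GRCm38.p6, from 250 bases before each start to 50 bases after it, were found for 68 of the 77 members. The motifs, searched on both strands, were CCGGAAG for ETS factors such as GABP, GCCATNTT for YY1, CACGTG for the E-box, TCAAGGTCA for the estrogen-related receptors, and for NRF1 the run GCGCA, any base, GCGC. None of these letter strings contains another. A gene counted when any of its windows held a match. A match is a description of the letters and not evidence of binding.

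ETS, YY1 and NRF1 matches were more frequent in members than in all genes compared. The ETS motif was present in 25 of 68 members, 36.8%, beside 20.8% of 9213 compared genes and 9.93% of all 27025 genes of the table. The YY1 motif was present in 20 members, 29.4%, beside 10.3% and 6.96%. The NRF1 motif was present in 13, 19.1%, beside 12.02% and 5.19%. The E-box was present in 5, 7.35%, beside 11.9% and 8.09%, and the receptor motif in 0, beside 0.358% and 0.466%. At least 1 of the 5 motifs was found in 48 members, 70.6%, beside 43.8% of compared genes. The share of G and C was taken from the window of each gene where it was highest. Its median was 58.2% in members, below the 62.0% of compared genes and above the 53.3% of the whole table.

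**Figure D5:**
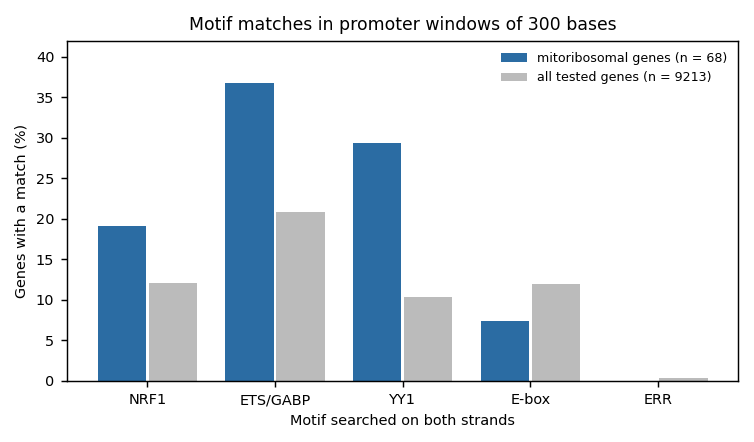
Share of genes with a match of each motif in the promoter window (vertical axis, percent), for 68 mitoribosomal genes and 9213 compared genes; bars start at 0 and show single counts with no error. The ETS/GABP, YY1 and NRF1 bars are higher for mitoribosomal genes (36.8%, 29.4% and 19.1%), and the E-box bar is lower (7.35%).

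Median ratios of members with and without a match were nearly the same for NRF1, YY1 and the E-box (only 5 members with a match). For the ETS motif, members with a match had a somewhat lower median. The median log2 ratio was 0.10 with and 0.10 without an NRF1 match, 0.11 and 0.10 for YY1, 0.11 and 0.10 for the E-box, and 0.08 and 0.14 for the ETS motif. With any of the 5 motifs it was 0.08, and with none 0.16. The sequences below are those of the 2 members past 1.5-fold, the 2 lowest members, and 3 members whose windows show a pair of motifs together. Each is written 5′ to 3′ on the strand of the gene, upstream of its start, in lower case with the motifs in capitals, and bases inside the gene model of the tables are left out. Mrps23 is chr11:88204138-88204387 on the plus strand and Mrpl2 is chr17:46645971-46646220 on the plus strand. Mrps21 is chr3:95871520-95871764 on the minus strand, and Mrps33 is chr6:39810989-39811186 on the minus strand. Mrpl17 is chr7:105811100-105811337 on the minus strand, Mrpl32 is chr13:14613038-14613287 on the minus strand, and Mrpl36 is chr13:73330759-73331008 on the plus strand.
Mrps23: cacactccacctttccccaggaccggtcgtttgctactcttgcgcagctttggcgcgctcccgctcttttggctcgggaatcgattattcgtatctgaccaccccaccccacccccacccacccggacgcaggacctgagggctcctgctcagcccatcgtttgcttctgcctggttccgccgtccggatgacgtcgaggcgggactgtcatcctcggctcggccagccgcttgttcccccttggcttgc
Mrpl2: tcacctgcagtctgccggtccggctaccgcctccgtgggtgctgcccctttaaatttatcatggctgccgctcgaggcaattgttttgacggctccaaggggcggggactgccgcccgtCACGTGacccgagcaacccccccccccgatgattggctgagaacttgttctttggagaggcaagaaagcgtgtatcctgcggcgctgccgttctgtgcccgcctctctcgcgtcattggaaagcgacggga
Mrps21: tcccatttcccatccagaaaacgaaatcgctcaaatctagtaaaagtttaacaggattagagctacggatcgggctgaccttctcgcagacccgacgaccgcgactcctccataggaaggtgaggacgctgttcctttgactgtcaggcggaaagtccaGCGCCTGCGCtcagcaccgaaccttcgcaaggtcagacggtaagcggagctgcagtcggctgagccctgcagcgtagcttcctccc
Mrps33: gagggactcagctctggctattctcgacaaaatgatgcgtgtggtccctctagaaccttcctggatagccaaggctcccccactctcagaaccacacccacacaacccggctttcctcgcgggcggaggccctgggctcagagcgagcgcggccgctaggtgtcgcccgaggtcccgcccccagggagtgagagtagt
Mrpl17: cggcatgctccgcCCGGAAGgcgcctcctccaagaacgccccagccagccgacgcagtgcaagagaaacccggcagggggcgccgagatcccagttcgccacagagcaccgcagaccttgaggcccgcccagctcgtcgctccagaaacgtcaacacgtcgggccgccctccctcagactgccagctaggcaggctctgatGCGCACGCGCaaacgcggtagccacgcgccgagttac
Mrpl32: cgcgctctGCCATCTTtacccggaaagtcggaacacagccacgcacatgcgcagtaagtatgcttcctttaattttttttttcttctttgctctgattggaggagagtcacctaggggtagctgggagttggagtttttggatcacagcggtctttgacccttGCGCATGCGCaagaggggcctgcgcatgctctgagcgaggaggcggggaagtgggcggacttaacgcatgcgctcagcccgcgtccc
Mrpl36: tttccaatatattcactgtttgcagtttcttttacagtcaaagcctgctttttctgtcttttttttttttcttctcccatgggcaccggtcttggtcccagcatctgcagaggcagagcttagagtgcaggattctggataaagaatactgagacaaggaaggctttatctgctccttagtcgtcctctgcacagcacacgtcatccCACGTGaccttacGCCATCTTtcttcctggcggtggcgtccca

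The highest and lowest members were not set apart by these letters. Upstream of Mrps23 and of Mrps33 none of the motifs was found, Mrpl2 held an E-box and Mrps21 an NRF1 match. Mrps23, Mrps21 and Mrps33 each held an ETS match in the remaining bases of their windows, which are not shown. Mrpl17 combined ETS and NRF1 matches, Mrpl32 YY1 and NRF1 matches, and Mrpl36 an E-box and a YY1 match.

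Members often shared a start region with a gene on the other strand. A protein-coding gene started within 500 bp on the opposite strand for 25 of 77 members, 32.5%, beside 1660 of 11579 compared protein-coding genes, 14.3%. In the 24 cases where the partner was also compared, which count the pair Mrpl46 and Mrps11 from both sides, the ratios of member and partner lay on the same side of 1 in 9. The member was above 1 and the partner below in 9, and the reverse held in 6. Klc4, which starts 207 bp from Mrpl2 and encodes a kinesin light chain, had 37.1 CPM in WT and 28.0 CPM in 2KR, a ratio of 0.754 (0.673 to 0.845), opposite to Mrpl2. Psma2, a proteasome subunit that starts 75 bp from Mrpl32, had 88.4 and 99.7 CPM, a ratio of 1.13 (1.06 to 1.21), close to that of Mrpl32 at 1.11. Ndufs6, a complex I subunit whose start overlaps that of Mrpl36, had a ratio of 1.23 (1.03 to 1.46), whereas Mrpl36 was at 29.7 CPM in WT and 28.1 CPM in 2KR. The spans of 35 members overlap another gene model, in 29 of them with shared exon bases, and the assignment of reads in shared bases is not known. Counting by strand would separate only pairs on opposite strands, and some pairs, such as Mrps6 with Slc5a3, lie on the same strand.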

How the data were processed

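Raw read counts and FPKM values per gene model were deposited by the authors for both libraries, per the file headers. The submitters' processing notes name HISAT2 2.0.4 and build GRCm38, and for the counting program, annotation release and strandedness nothing was given in the sources used here. Counts were scaled with TMM in edgeR 4.0.16 (R 4.3.3; factors 0.9931 for WT and 1.0070 for 2KR) to CPM. Models that averaged 1 CPM or more were compared by the log2 ratio of CPM + 1, 2KR over WT, which understates differences of low genes, and counts past a fold use this scale. Printed folds leave the pseudocount out. No significance test was run, and variation between cultures was not measured.

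Strand, exons and gene type came from GENCODE M21, whose gene ends matched the tables for 58 of 77 members. Subunits follow the place of each protein in the mammalian mitoribosome. Named members were those past 1.5-fold, the 6 highest and 6 lowest ratios, the 6 highest and 3 lowest FPKM, and a set chosen for role; Mrpl3, Mrpl4, Mrpl27 and the divergent or overlapping partners were named after their values were seen. From other lists, the rule took the 3 largest differences and the highest FPKM, and not all of these genes are printed. Nrf1, Gabpa, mt-Nd6 and the cell markers were added for their role. The members, lists and tests were chosen with earlier results of these data known. The ratio and its interval were tested on simulated data. Alternatives were other pseudocounts, filters and scalings (DESeq2 1.42.0 among them), the deposited FPKM, and leaving out overlapping models. Scripts ran in Python 3.11.15 with scipy 1.17.1 (intervals), pandas 2.3.3, numpy 2.4.6 and, for figures, matplotlib 3.10.9.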

Additional observations from a re-analysis of the deposited data

How the results depend on the processing

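With 1 library per form, no library could be left out. No paired analysis was possible because each form has 1 library and no test was run. Among named members, 269 of 269 log2 ratios kept their sign under the alternatives, and 0 members were 2-fold different under any alternative. The median log2 ratio of the members ran from 0.08 to 0.12, that of the large subunit from 0.09 to 0.13 and that of the small subunit from 0.04 to 0.10. Members with a ratio above 1 numbered 32 of 42 when overlapping members were left out (56 of 77 with them), since fewer members remained. Members at least 25% higher numbered 6 on the deposited FPKM + 1 scale and 10 on CPM + 1; the same pseudocount weighs more on low FPKM values. The mitochondrial mRNAs had a median of -0.29 with library totals only, -0.32 with ratios centred on all models, -0.33 with totals that leave out the mitochondrial chromosome and -0.29 on deposited FPKM, beside -0.31. The median of all compared models moved by less than 0.1 under each scaling. Medians close to 0 changed sign: that of the translation factors (-0.01) was 0.01 with library totals only, 0.01 on deposited FPKM and 0.02 with a mean of at least 5 CPM, and that of the biogenesis regulators (0.02) was -0.00091 with totals that leave out the mitochondrial chromosome. Depth limits the least counted members, Mrpl53 (57 and 65 counts), Mrps36 and Mrps28, most.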
